A study of Xenopus laevis with 5 samples.

Results

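Dynein arms are the motors that bend motile cilia, and they reach the cilium as finished complexes. Their chains are folded and joined in the cytoplasm by dynein axonemal assembly factors together with general chaperones, the finished arms are then carried into the cilium, and a docking complex fixes the outer arms to the doublet microtubules. The genes described here are 8 factors of this route, chosen by their gene symbol in the platform annotation: dnaaf4.L, dnaaf5.L, dnaaf10.L and cfap298.L, which act in assembly, odad4.L, which acts in docking, daw1.S, which acts in transport, and the general chaperones ruvbl1.S and ruvbl2.S. Each symbol had 1 probe set, so the 8 genes are 8 of the 7531 named on the platform and 8 of its 15491 probe sets other than controls, and all 8 passed the filter on low signal, dnaaf4.L only through its signal with FoxJ1. Besides these, 2 probe sets belong to the other copy of ruvbl2 or are shared by its copies. Xenopus laevis carries an L and an S copy, called homeologs, of many genes, and cross-hybridisation between the copies cannot be told from these values.

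The data are 5 Affymetrix arrays of Xenopus laevis ectodermal explants, 1 array per sample. Embryos were injected at the 2-cell stage with synthetic RNA, the prospective ectoderm was cut off at stage 9 to 10 and cultured on fibronectin, and RNA was taken at stage 22. ICD RNA alone went into 3 samples, and ICD RNA together with FoxJ1 RNA into 2 samples, so the controls carry ICD too. The labels leave ICD unexplained; in work on frog skin it usually stands for the Notch intracellular domain, which blocks the multiciliated fate. FoxJ1 is a forkhead transcription factor known for its role in motile cilia. No sample without injected RNA was analysed here, no probe set carries the name foxj1, and no label tells whether the replicates were independent batches of embryos, so the p-values capture the scatter among these arrays alone, and that scatter may be technical. The deposited values are MAS5 signals on a linear scale, and the small number of arrays limits their precision.

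Itln1.L, the intelectin of goblet cells in frog skin, had signals from 5924.8 to 10404.4 on the 5 arrays. The background level of an array is the brightest of 20 foreign control probe sets, and it lay between 16.9 and 28.4. The poly-A control transcripts, bacterial RNAs added before labelling, were bright on 3 arrays (ICD replicates 1 and 2 with ICD+FoxJ1 replicate 1), with a median signal of 318 to 368, and nearly absent on ICD replicate 3 and ICD+FoxJ1 replicate 2, with 2.95 and 1.90. This split crosses the groups. The summed signal of 10 genes listed as multiciliated cell markers was 3239 to 7248 on the ICD arrays, lowest on replicate 1, and 15777 to 21030 on the arrays with FoxJ1. Tubb4b.L alone gave 2623.9 to 4379.9 of this sum with ICD, and 5346.6 and 7670.3 of it with FoxJ1. Of the 9 tested genes in the list 4 rose, namely ccdc78.S, rsph1.L, tekt2.L and tekt2.S. Tekt2.L was at background on every ICD array and passed the filter on low signal only through its signal with FoxJ1. It had to differ to be tested, so its call adds no support to this count. Ccno.L had 176.7 and 193.4 with FoxJ1, inside its ICD range of 31.7 to 439.0. Foxn4.S had 35.4 and 37.7, inside its ICD range of 22.2 to 58.2. Rfx2.S, tubb4b.L and tubb4b.S were higher on both arrays with FoxJ1 than on every ICD array but did not pass by limma. Myb.S was at background on every array. The summed signal of 8 epidermal and goblet cell genes was 32497 to 41923 with ICD and 27386 to 34631 with FoxJ1, and that of 11 neural genes 1121 to 1702 and 967 to 1051; in each of these lists 0 of 8 tested genes rose and 4 fell by limma, with 0 and 1 genes higher at an unadjusted p under 0.05. Of 8 blood and endoderm genes, 4 were at background on every array, namely hbg1.L and the 3 sox17 genes, but a2m.S had 407.6 to 1416.3 on all arrays and hba1.S was above background on 3; their summed signal was 654 to 1479 with ICD and 500 to 1016 with FoxJ1. Of 5 tested ionocyte genes, 2 rose and 2 fell by limma, with log2 differences from -1.74 to 2.04. Of all probe sets, 4.48% rose and 2.99% fell, and 12.3% were higher at an unadjusted p under 0.05. With 8 tested genes in each list, the 0 epidermal and 1 neural genes higher at that unadjusted threshold cannot be told from this share. The summed signal of the 6 ionocyte genes with a probe set was 636.5 to 741.9 with ICD and 439.7 to 584.3 with FoxJ1. Of 5 mesoderm and muscle genes, 2 were at background on every array, myf5.L and myod1.S. Ckm.L, muscle creatine kinase, fell: it lay between 493.7 and 634.3 on the ICD arrays and at 207.4 and 213.4 with FoxJ1. Myod1.L rose: it lay between 20.6 and 21.7 on the ICD arrays and at 99.5 and 48.4 with FoxJ1. Its ICD signals were near the background levels of those arrays, 20.0 to 28.4, so the size of this rise is not fixed. More multiciliated cells and more RNA per cell cannot be told apart in these bulk samples, and the part of cell composition in the results below was not tested.

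With FoxJ1, 5 of the 6 cilium-specific factors rose. The general chaperones ruvbl1.S and ruvbl2.S did not pass the test, ruvbl2.S narrowly (limma adjusted p = 0.0566), while the other copy ruvbl2.L, not a member, rose. Daw1.S, dnaaf10.L, cfap298.L and odad4.L rose to 6.26 to 15.7 times their mean ICD signal, and dnaaf4.L, at background with ICD, was at least 5.96-fold higher. Dnaaf5.L, the assembly factor left over, overlapped between the groups. The test was limma across the 11618 probe sets left after the dimmest 25% were taken out, on log2(signal + 16), with Benjamini-Hochberg adjustment over all of them and a threshold of 0.05. It called 7.47% of all probe sets, 4.48% higher and 2.99% lower, against 5 of 8 members higher and 0 lower, also 0 lower at an unadjusted p under 0.05. At that unadjusted threshold 12.3% of all probe sets were higher and 12.3% lower. Because dnaaf4.L passed the filter through the group where it is high, it had to differ to be tested, and 4 of the other 5 cilium-specific factors rose. On the scale of log2 differences (ICD with FoxJ1 minus ICD), the median was 2.64 over the 6 cilium-specific factors and -0.03 over all probe sets tested. The arrays with FoxJ1 lay above every ICD array in 7 of the 8 members, against 21.2% of all probe sets, and below every ICD array in 0 members, against 23.0%. Dnaaf4.L is among these 7 and in the median of 2.64. Since it had to differ to be tested, it adds no support to either.

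**Figure D1:**
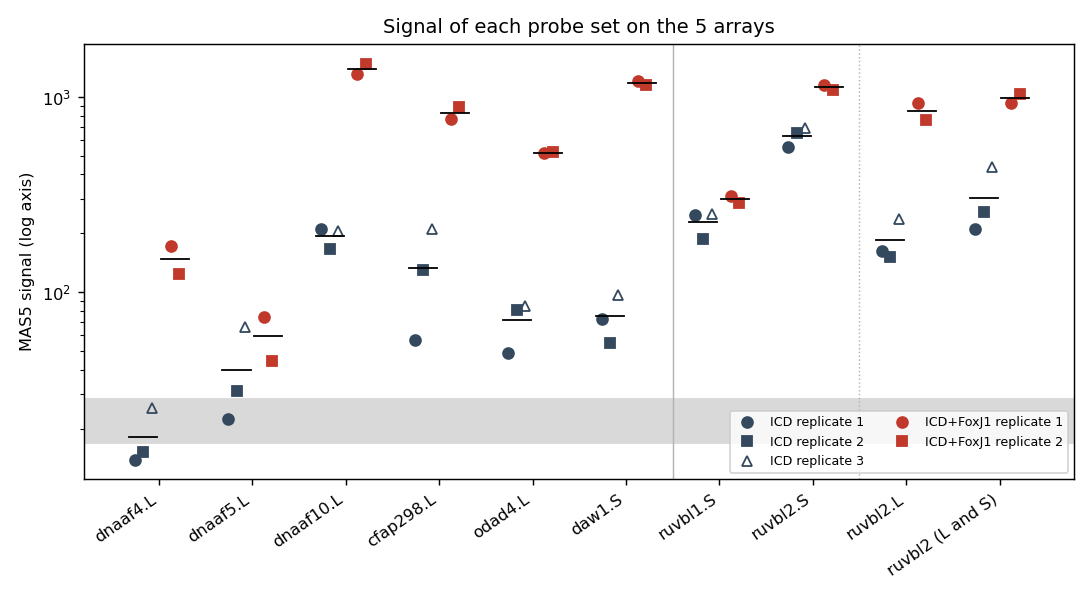
MAS5 signal (log axis) of the 8 genes and, right of the dotted line, of the 2 further ruvbl2 probe sets on each of the 5 arrays; symbols mark replicates, short lines are group means, and the grey band is the range of background levels (16.9 to 28.4). Left of the solid line are the 6 cilium-specific factors. The groups are apart in every column except that of dnaaf5.L, and dnaaf4.L lies at background on the 3 ICD arrays.

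Among the assembly factors, dnaaf4 encodes a co-chaperone, also known as Dyx1c1, that is needed for cytoplasmic assembly of outer and inner arms. The signal of dnaaf4.L was 13.9, 15.2 and 25.4 with ICD alone, in the order of replicates 1 to 3, and 172.4 and 123.6 with FoxJ1. All 3 ICD values were at or below the background level of their array, so the rise is given as a bound, and dnaaf4.L was at least 5.96-fold higher with FoxJ1 (limma adjusted p = 0.00270). Its log2 difference of 2.26 (SE 0.26) rests on the added 16 and is no measure of the true fold.

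Dnaaf10, also known as Wdr92, is a WD-repeat protein that binds the R2TP co-chaperone complex, of which the RUVBL proteins are the ATPases. The signal of dnaaf10.L was 209.4, 166.1 and 206.0 under ICD alone and 1300.9 and 1473.8 with FoxJ1. The ICD arrays were close together, with a coefficient of variation of 12.4%, and the groups were far apart. The log2 difference was 2.75 (SE 0.22, limma adjusted p = 0.00131), and only 1.02% of all probe sets had a larger one.

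Cfap298, also known as Kurly, is needed for cilium motility in zebrafish. The signal of cfap298.L was 56.7, 129.7 and 209.9 under ICD alone and 771.6 and 881.4 with FoxJ1. The highest ICD value was 3.70 times the lowest, the widest ICD spread of the 8 members, yet the lower array with FoxJ1 was still 3.68 times the highest ICD array. The log2 difference was 2.65 (SE 0.44, limma adjusted p = 0.0122). Without ICD+FoxJ1 replicate 1 this call was lost at a difference of 2.75 (limma adjusted p = 0.102), and without ICD+FoxJ1 replicate 2 at 2.56 (limma adjusted p = 0.110).

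Dnaaf5, also known as Heatr2, is a HEAT-repeat protein of cytoplasmic arm assembly. The signal of dnaaf5.L was 22.4, 31.2 and 65.9 under ICD alone and 74.6 and 44.4 with FoxJ1. The groups overlapped, since ICD replicate 3 exceeded ICD+FoxJ1 replicate 2, and the signal was at background on 1 ICD array. The log2 difference was 0.48 with a 95% interval from -0.35 to 1.31 (limma adjusted p = 0.450), an interval that holds the differences of ruvbl1.S and ruvbl2.S given below. RefSeq lists an S copy of dnaaf5, for which no probe set is annotated.

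Odad4, also known as Ttc25, belongs to the outer dynein arm docking complex. The signal of odad4.L was 48.6, 81.3 and 85.0 under ICD alone and 512.9 and 521.3 with FoxJ1. The arrays with FoxJ1 were nearly alike, at 517 ± 5.94 (SD, n = 2), against 71.6 ± 20.0 (SD, n = 3) with ICD. The log2 difference was 2.63 (SE 0.27, limma adjusted p = 0.00201).

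Daw1 is the vertebrate counterpart of ODA16, which in the alga Chlamydomonas links outer arms to intraflagellar transport through Ift46. The signal of daw1.S was 73.1, 55.0 and 97.0 under ICD alone and 1203.5 and 1149.4 with FoxJ1. Its rise was the largest among the members with ICD signal above background, at 3.74 on the log2 scale (SE 0.26; adjusted p = 0.00131 by limma) with a 95% interval from 3.13 to 4.35. The next in order, dnaaf10.L, had an interval from 2.23 to 3.26, which overlaps that of daw1.S, and the intervals of dnaaf10.L, cfap298.L and odad4.L all overlapped. Dnaaf4.L, known only by a lower bound, has no place in this order.

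Ift46.S, the transport adaptor's binding partner in Chlamydomonas, was the only gene of a list of other docking and ruler factors with a probe set. Its signal was 80.9, 115.5 and 176.2 under ICD alone and 631.5 and 1205.0 with FoxJ1, so that the groups were apart. The log2 difference was 2.72 (SE 0.38, limma adjusted p = 0.00616), and the call was lost without ICD+FoxJ1 replicate 2 and when only the poly-A bright arrays were used. In a list of other assembly factors, 1 gene had a probe set, kctd10.L, which is not an established factor of dynein assembly and differed by 0.37 (SE 0.28, limma adjusted p = 0.461).

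The 5 rises had the same direction on either side of the poly-A split. Among the 3 arrays bright in poly-A controls, those other than dnaaf4.L differed by 2.70 to 3.94 on the log2 scale, and between the 2 arrays without that signal by 1.99 to 3.37. Dnaaf5.L differed by 1.09 within the former and by -0.44 within the latter. Among the ICD arrays, 4 of the 6 cilium-specific factors were lowest on replicate 1, as were 42.2% of all probe sets, and 5 of 6 were highest on replicate 3, as were 32.2% of all. Both counts include dnaaf4.L, which was at background on every ICD array, so its order there carries no information. Dnaaf5.L was at background on replicate 1.

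Ruvbl1 and Ruvbl2, also known as Pontin and Reptin, are AAA+ ATPases that work together in many assemblies outside the cilium, among them chromatin remodelling complexes, the R2TP co-chaperone and the assembly of box C/D small nucleolar ribonucleoproteins (snoRNPs). The signal of ruvbl1.S was 249.0, 186.6 and 250.9 under ICD alone and 311.8 and 285.9 with FoxJ1. The groups did not overlap, but the lower array with FoxJ1 was only 1.14 times the highest ICD array. The log2 difference was 0.37 with a 95% interval from -0.18 to 0.92 (limma adjusted p = 0.375).

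The signal of ruvbl2.S was 549.7, 651.6 and 691.6 under ICD alone and 1144.1 and 1086.4 with FoxJ1. These groups were apart too, at 631 ± 73.2 (SD, n = 3) and 1115 ± 40.8 (SD, n = 2). The log2 difference of 0.81 (95% interval 0.33 to 1.29) just missed the threshold (limma adjusted p = 0.0566) and passed it without ICD replicate 1, at 0.72 (limma adjusted p = 0.0475).

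The other copy, ruvbl2.L, rose with FoxJ1. It is not among the 8 members and was taken up after its values were seen. Its signal was 163.2, 151.6 and 237.0 under ICD alone and 932.2 and 763.7 with FoxJ1. The groups were wide apart, at 184 ± 46.3 (SD, n = 3) and 848 ± 119 (SD, n = 2), and the log2 difference was 2.13 (SE 0.26, limma adjusted p = 0.00386). Without ICD+FoxJ1 replicate 1 it was 1.99 and missed the threshold (limma adjusted p = 0.0603). The shared probe set, annotated to the L and S copies at once, had signals of 210.1, 257.3 and 439.0 with ICD and of 926.2 and 1034.0 with FoxJ1. Its log2 difference of 1.71 (SE 0.32, limma adjusted p = 0.0192) lay between those of the copies.

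Set directly against ruvbl2.S on the same arrays, ruvbl2.L rose by a further 1.32 on the log2 scale (SE 0.28, 95% interval 0.69 to 1.95, limma adjusted p = 0.00577). In this fit, chosen after the values were seen, every probe set is taken relative to ruvbl2.S, and 2.49% of all probe sets stood higher. Without ICD+FoxJ1 replicate 1 the difference was 1.21 and no longer passed (limma adjusted p = 0.0691). Ruvbl1.S differed from ruvbl2.S by -0.44 (95% interval -1.09 to 0.21, limma adjusted p = 0.201). RefSeq also lists an L copy of ruvbl1, for which no probe set is annotated.

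**Figure D2:**
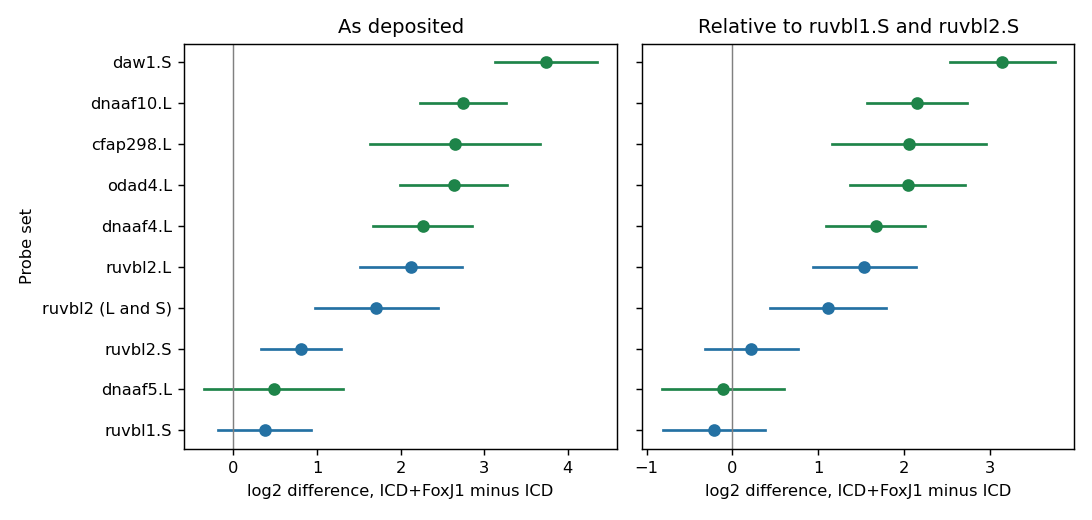
Log2 difference (ICD with FoxJ1 minus ICD) with its 95% interval from limma for the 8 genes and the 2 further ruvbl2 probe sets, as deposited (left) and relative to the mean of ruvbl1.S and ruvbl2.S on each array (right); green marks cilium-specific factors and blue the ruvbl probe sets. The interval of ruvbl2.L, at 2.13, lies apart from that of ruvbl2.S, at 0.81; the point of dnaaf4.L, at background with ICD, moves with the added 16 and has no fixed place in the order.

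To compare the cilium-specific factors with the chaperones, every probe set was expressed relative to the mean log2 signal of ruvbl1.S and ruvbl2.S on its array and the limma fit was repeated. That mean itself differed by 0.59 between the groups. Of the 6 cilium-specific factors, 5 stood higher than the chaperones, as did 2.85% of all probe sets, whereas 33.7% stood lower. Daw1.S exceeded the chaperones by 3.14 (SE 0.28, limma adjusted p = 2.68e-04), dnaaf10.L by 2.15, cfap298.L by 2.06 and odad4.L by 2.04 on the log2 scale. Dnaaf4.L is counted among the 5 (limma adjusted p = 0.00238), but it passed the filter on low signal only through the group where it is high. It had to differ to be tested, so its call adds no support to the counts in this comparison. The size of its difference is not fixed and was 2.38 with log2(signal + 1) and 0.82 with log2(signal + 64). Dnaaf5.L differed from them by -0.11 (95% interval -0.82 to 0.60, limma adjusted p = 0.795), and its sign turned in several settings. With ruvbl1.S alone as the reference, 5 of 6 again stood higher, as did 2.88% of all probe sets. With ruvbl2.S alone it was 5 of 6 too, against 2.49% of all probe sets higher and 57.5% lower. Without ICD+FoxJ1 replicate 1, 3 of the 6 stood higher. Using the poly-A bright arrays alone, 0 did by limma's adjusted p, although 5 were higher at an unadjusted p under 0.05, as were 2.28% of all probe sets.

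The contrast differed with the ruvbl2 copy taken as reference. Ruvbl2.L itself exceeded the mean of ruvbl1.S and ruvbl2.S by 1.54 (SE 0.27, limma adjusted p = 0.00396). Relative to ruvbl2.L alone, 1 of the 6 cilium-specific factors stood higher, daw1.S by 1.61, as did 0.826% of all probe sets. In that fit, dnaaf10.L differed by 0.62 (limma adjusted p = 0.170), cfap298.L by 0.52 and odad4.L by 0.50, and dnaaf5.L stood lower by 1.65 on the log2 scale, as did 96.1% of all probe sets. Dnaaf4.L did not pass either, but with its ICD signals at background it cannot be ranked against ruvbl2.L.

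**Figure D3:**
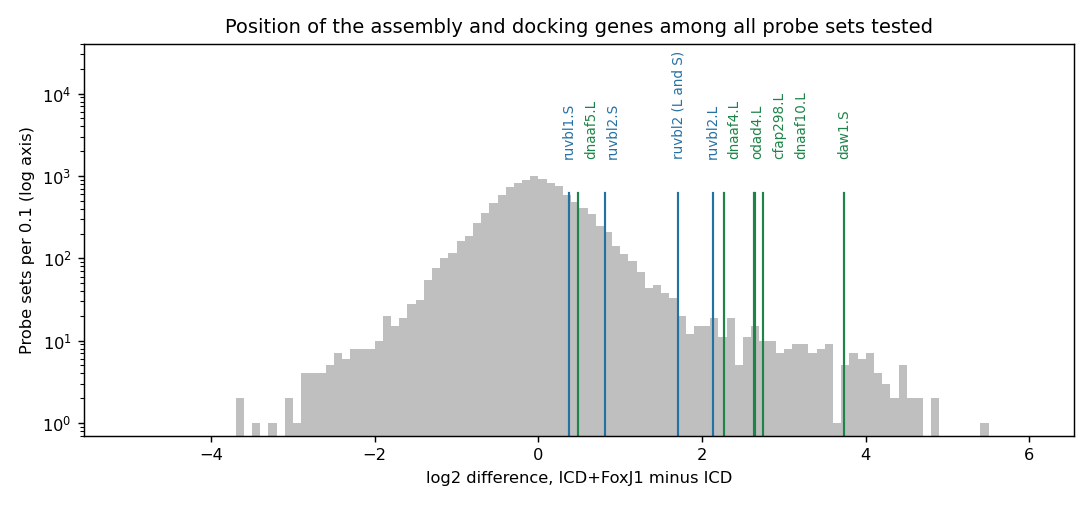
Number of probe sets per 0.1 of log2 difference (log axis) over the 11618 probe sets tested, with the positions of the 8 genes and the 2 further ruvbl2 probe sets as lines, cilium-specific factors in green and ruvbl in blue. Ruvbl1.S, dnaaf5.L and ruvbl2.S lie on the flank of the main body, where 23.0%, 18.2% and 8.76% of probe sets had larger differences, and the other 7 lie in the thin right tail.

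The cargo of the assembly factors moved as follows. Of 8 tested genes in a list of axonemal dynein chains and light chains, 6 rose and 1 fell, with a median log2 difference of 1.73. Among all probe sets, 4.48% rose and 2.99% fell. Dnai1.L, an intermediate chain of outer arms, had a mean signal of 112 ± 71.6 (SD, n = 3) under ICD alone and of 1269 ± 54.4 (SD, n = 2) once FoxJ1 was added, or 3.49 more on the log2 scale (SE 0.44, limma adjusted p = 0.00436). Dnai4.S, another axonemal intermediate chain, rose by 3.00, and the light chain gene dynlrb2.S by 3.80. Dynll1.S, a light chain that cytoplasmic dynein also uses, fell by 2.54 on the log2 scale, but another of its probe sets differed by -0.02 and did not pass. Its homeolog dynll1.L rose by 1.21. Without ICD+FoxJ1 replicate 1, 1 of the 8 rose by the adjusted p, without ICD+FoxJ1 replicate 2, 2 did, among the poly-A bright arrays alone 3 did and without ICD replicate 2, 4 did, whereas 6 were higher at an unadjusted p under 0.05 in each of these settings. At that threshold 7.25% to 11.4% of all probe sets were higher in them. The heavy chain gene dnah9.S was at background on every array and was not tested.

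Cytoplasmic dynein and dynactin are the motor and cofactor that carry cargo along microtubules in the cell body. Of 21 genes for them, 2 rose, 1 fell and 18 did not pass, with a median of 0.25. Among all probe sets, 4.48% rose and 2.99% fell. The 3 that passed were dynll1.L, dynll1.S and dynlt1.L (1.08), light chains that the axonemal list holds as well. The light chain gene dynlrb2.S, which rose by 3.80, was placed in the axonemal list alone, and the counts of both lists depend on that placement. Without ICD replicate 2, without either array with FoxJ1, or among the poly-A bright arrays alone, 0 rose by limma's adjusted p and 2 of 21 were higher at an unadjusted p under 0.05, close to the share of all probe sets. Without ICD replicate 3, 1 rose.

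Partners of the Ruvbl proteins were read from 3 further lists. In the list of R2TP and prefoldin-like partners, 0 of 6 tested genes passed by limma, against 7.47% of all probe sets, with a median of -0.21. At an unadjusted p under 0.05, 1 was higher and 1 lower, against 12.3% of all probe sets higher and 12.3% lower. Rpap3.L, the R2TP subunit that holds the chaperones, had signals of 144.9, 111.5 and 144.2 with ICD and of 258.1 and 268.8 with FoxJ1. Its groups were apart, and its log2 difference of 0.91 (SE 0.23, limma adjusted p = 0.0591) was the highest of the list and missed the threshold, which it passed without ICD replicate 1 and with eBayes without a trend. Polr2e.S, an RNA polymerase subunit found with this complex, had the lowest, -0.63. Pih1d1.L, the other R2TP subunit, was at background on the 3 ICD arrays with signals of 12.2, 8.8 and 12.2, reached 26.0 and 27.5 with FoxJ1, and was below the filter on low signal.

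In the list of chromatin remodelling partners, 0 of 16 genes passed by limma, against 7.47% of all probe sets. At an unadjusted p under 0.05, 0 were higher and 2 lower, against 12.3% of all probe sets higher and 12.3% lower, so the 2 lie close to the share of all. The log2 differences ran from -0.70 in actr5.S, of the INO80 complex, to 0.35 in ing3.L, of the NuA4 complex, with a median of -0.24. Of 7 genes in the box C/D snoRNP list, each by its brightest probe set, 5 fell and 0 rose, with a median of -1.07. Of all probe sets, 2.99% fell and 4.48% rose. By these brightest probe sets, 0 genes were higher at an unadjusted p under 0.05, against 12.3% of all probe sets. Snu13.L and snu13.S, which encode the protein that binds the RNA first, differed by -1.07 and -1.28, nop56.L by -1.07 and nop58.S by -1.20. Fbl.S, the methyltransferase fibrillarin, differed by -1.16, and a second probe set fell alike at -1.11. A dimmer one was higher by 0.65, under the unadjusted threshold (limma unadjusted p = 0.0200), but did not pass the adjusted one. Nufip1.S, an assembly factor of these particles, had the highest difference of the list, -0.50, and did not pass. It was above background on 1 of the 3 ICD arrays and at background on both arrays with FoxJ1, so the size of this difference is not fixed.

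The 5 falls in the box C/D list had limma adjusted p-values from 0.0241 in snu13.L to 0.0317 in snu13.S. Without ICD replicate 3, without either array with FoxJ1, or among the poly-A bright arrays alone, 0 of the 7 passed by limma's adjusted p and 5 were lower at an unadjusted p under 0.05, as were 4.69% to 10.3% of all probe sets. With the poly-A split as a term, 2 fell.

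Chaperones that fold many proteins, dynein chains among them, stayed below the threshold. Of 24 genes for Hsp90, Hsp70, their co-chaperones and the CCT chaperonin, 0 passed by limma, against 7.47% of all probe sets. At an unadjusted p under 0.05, 0 were higher and 2 lower, against 12.3% of all probe sets higher and 12.3% lower. The log2 differences of the 24 genes ran from -0.93 in cct4.L to 0.58 in cct3.S, both chaperonin subunits, with a median of -0.28. Prefoldin, which hands chains to the chaperonin, had 4 tested genes, of which 0 passed by limma, against 7.47% of all probe sets. At an unadjusted p under 0.05, 1 was higher and 0 lower, against 12.3% of all probe sets higher and 12.3% lower. With 4 genes these counts cannot be told from the shares of all. Vbp1.S had the highest difference, 0.62, and pfdn6.S the lowest, -0.10.

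**Figure D4:**
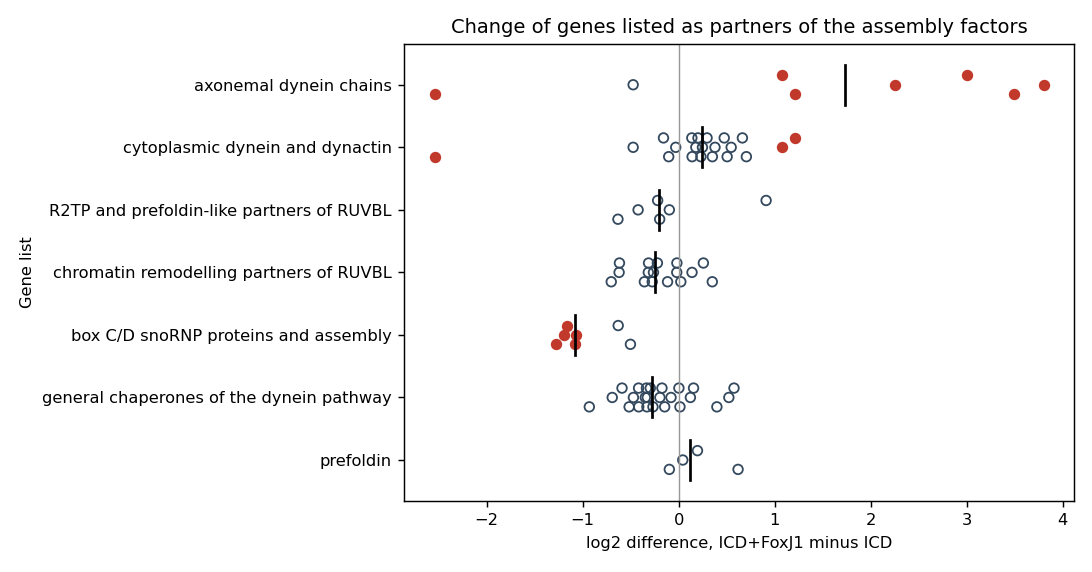
Log2 difference (ICD with FoxJ1 minus ICD) of each tested gene in 7 lists of dynein genes, Ruvbl partners and general chaperones, 1 point per gene by its brightest probe set. Filled red points passed limma's adjusted threshold, open points did not, and black lines are list medians. The light chains dynll1.L, dynll1.S, dynll2.S and dynlt1.L appear in both the axonemal and the cytoplasmic dynein list, and dynlrb2.S in the axonemal list alone. The medians of the axonemal dynein chains (1.73) and the box C/D snoRNP genes (-1.07) lie on opposite sides of 0.

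The genes nearest in pattern were found by the root mean square difference between log2 profiles over the 5 arrays, each centred on its own mean, which is a description of these arrays. Nearest to the mean of the 6 cilium-specific factors were cfap45.L, a protein inside the doublet microtubules, at a distance of 0.085, then fam221a.L at 0.098, spaca9.L at 0.12, hoxa3.S at 0.12 and ift80.L, of intraflagellar transport, at 0.13. That mean is built from the 6 factors themselves, so the distance of each factor is partly a distance to itself. Odad4.L lay at 0.18 from it, dnaaf10.L at 0.30, cfap298.L at 0.35, daw1.S at 0.67 and dnaaf5.L at 0.97. Dnaaf4.L lay at 0.15, but with its ICD signals at background its distance is not fixed and has no place in this order. Ruvbl2.L, which is not part of the mean, lay at 0.18. The mean pools dnaaf5.L, with a log2 difference of 0.48, and daw1.S, with 3.74, so nearness to it is not nearness to each factor. Cfap45.L had signals of 42.1 to 72.4 with ICD, below both arrays with FoxJ1, at 365.7 and 393.7. Hoxa3.S was dim, with 11.1 to 18.6 on the ICD arrays, all at background. Its distance, like that of dnaaf4.L, is therefore not fixed and has no place in the order.

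Nearest to the mean of ruvbl1.S and ruvbl2.S were ppara.S, gca.S, ccdc85c.S, the dim probe set of fbl.S and ahcyl2.L, at distances from 0.050 to 0.065. None of these 5 passed limma's adjusted threshold, with log2 differences from 0.50 to 0.65. Ccdc85c.S, the one at 0.50, was at background on every ICD array, so its difference and its distance are not fixed. The shared ruvbl2 probe set lay at 0.61 and ruvbl2.L at 0.77 from this mean.

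Genes next to the members in the RefSeq annotation were looked up by name. Pno1.L, a ribosome assembly factor beside dnaaf10.L, had signals of 468.0, 481.7 and 525.7 with ICD, above the 298.5 and 297.9 with FoxJ1. This came to -0.69 on the log2 scale (SE 0.21), short of the threshold (adjusted p = 0.0906 by limma). Mrpl44.S, a mitochondrial ribosome gene beside daw1.S, overlapped between the groups at -0.07 (limma adjusted p = 0.894). Sec61a1.S, of the translocation channel of the endoplasmic reticulum, lies beside ruvbl1.S and differed by -0.37 (limma adjusted p = 0.250). None of these neighbours passed the threshold. RefSeq lists a single copy of dnaaf4, dnaaf10, odad4 and daw1, and an S copy of cfap298 for which no probe set is annotated.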

How the data were processed

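The authors made the deposited linear intensities, 1 per probe set, with MAS5, per the submitters' processing notes, which name no version. Means with 2% trimmed at either end lie near 200.03 on each array. The table holds 15611 probe sets, of which 120 are controls and were left out of tests. By the platform annotation, 9304 probe sets carry 1 symbol, 195 carry several and 6112 carry none. Identifiers of 9227 were found in RefSeq's Xenopus_laevis_v10.1, used for names only.

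Signals were taken as log2(signal + 16), and the dimmest 25% by mean log2 value were left out. A linear model without covariates was fitted to the 5 arrays with limma 3.58.1 (R 4.3.3, eBayes with trend), tests were two-sided, and the code was tested on simulated data. For the comparison with the chaperones, the mean log2 value of ruvbl1.S and ruvbl2.S was subtracted on each array first. Genes of a list were represented by their brightest probe set. The added 16 makes differences of dim probe sets too small. For a probe set at background on every ICD array, these arrays were set to the higher of the background level and their own signal for an "at least" fold.

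The members, lists and tests were chosen with earlier results of these data known. The rule named all members, per list up to 4 genes past the threshold with the smallest p and the extremes, and the 5 nearest profiles. Other genes were named after their values were seen. Alternatives were other offsets, filters, normalizations, leaving out each array, the replicate number as a block and the poly-A split. Figures used matplotlib 3.10.9.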

Additional observations from a re-analysis of the deposited data

How the results depend on the processing

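The count of members that rose, 5, was 4 to 6 in the 15 settings tried, and daw1.S, dnaaf10.L, odad4.L and, where tested, dnaaf4.L passed in each. The number of all probe sets called, 868, was 185 to 1391 when single arrays were left out (185 and 196 without replicates 1 and 2 of the FoxJ1 group, and 1391, 565 and 566 without replicates 1, 2 and 3 of the ICD group), 316 with the replicate block and 189 among the poly-A bright arrays alone. The count of cilium-specific factors above ruvbl1.S and ruvbl2.S, 5, was 3 to 5 when single arrays were left out, 0 among the poly-A bright arrays (5 at an unadjusted p under 0.05, by limma) and 1 relative to ruvbl2.L alone, a setting chosen after seeing the data, as were the other reference genes. The difference of dnaaf5.L from the chaperones, -0.11, was 0.054 with log2(signal + 1), 0.14 with the replicate block, 0.38 among the poly-A bright arrays, 0.11 relative to ruvbl1.S alone, and -0.35 to 0.14 when single arrays were left out. The causes were not tested. The titles number replicates in both groups but do not say that a number pairs samples. Deviations from the group means correlated across probe sets with r = -0.06 for number 1 and -0.32 for number 2. The 2 arrays with FoxJ1 deviate as mirror images, so each ICD array gave equal values of opposite sign with them. ICD replicate 2 with ICD+FoxJ1 replicate 1 gave 0.32, and ICD replicate 3 with ICD+FoxJ1 replicate 2 gave 0.25. Each of these pairs shares a side of the poly-A split, as does number 1 at -0.06. The block stands only as an alternative, and it left the 5 calls among members in place and 0 of the 5 in the box C/D list. Leaving out an array with FoxJ1 leaves 1 in that group, which is assumed to vary like the others. Signals near background limit dnaaf4.L and dnaaf5.L. Dnaaf4.L passed the main filter on low signal only through the group where it is high. Its calls therefore add no support to the counts of members given here, that with the replicate block included.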
